A study of Mus musculus with 6 samples.

Results

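The polyglutamine and ataxin disease genes are genes whose human counterparts carry a short repeat that, when lengthened, causes a neurodegenerative disorder, together with their closest relative. They were taken from the count table by symbol: Atxn1, Atxn1l, Atxn2, Atxn3, Atxn7, Atxn10, Htt, Atn1, Tbp and Ppp2r2b, 10 genes of 56748 listed. Each matched 1 row, and all 10 had enough counts to be among the 16859 genes tested. The RNA came from the cerebellum of 6 C57BL/6J mice aged 90 to 120 days. The 3 MeHg mice were born to dams that drank 0.2 ppm methylmercury, an organic mercury compound toxic to neurons, from the first day of pregnancy until birth. The dams of the 3 control mice had water with 0 ppm. No other allele, transgene or treatment is named for either group. Dams and litters are not identified. Some mice of a group may be litter mates, and the p-values cover only the variation among the 6 mice sampled.

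In Huntington disease (HTT), spinocerebellar ataxias (ATXN1, ATXN2, ATXN3, ATXN7, TBP) and dentatorubral-pallidoluysian atrophy (ATN1), a run of CAG codons in the coding sequence is expanded and the protein gains a long glutamine tract. Purkinje cells and other cerebellar neurons are among the cells lost in most of these ataxias. ATXN10 and PPP2R2B are linked to ataxias in which the repeat lies outside the coding sequence. ATXN1L has no disease repeat and works beside ATXN1 in the corepressor complex of CIC. The normal products have separate tasks, from general transcription (TBP) to RNA binding (ATXN2), protein deubiquitination (ATXN3) and vesicle transport (HTT).

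The mouse genes differed in their longest run of glutamine codons. In the canonical transcript of each gene (GENCODE M39, GRCm39) the longest in-frame run of CAG or CAA codons on the coding strand was located. It is shown because it is the feature that gives these genes their name. The run is in capitals, with 15 coding bases on each side in lower case, written 5′ to 3′ on the strand of the gene.
Tbp: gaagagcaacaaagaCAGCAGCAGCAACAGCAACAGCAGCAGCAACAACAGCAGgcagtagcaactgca
Htt: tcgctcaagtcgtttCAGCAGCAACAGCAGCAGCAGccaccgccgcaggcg
Atxn3: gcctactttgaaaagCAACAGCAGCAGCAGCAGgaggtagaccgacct
Atxn7: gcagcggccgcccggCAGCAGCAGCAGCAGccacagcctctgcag
Atxn1: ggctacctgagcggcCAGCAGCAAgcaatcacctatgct
Atxn2: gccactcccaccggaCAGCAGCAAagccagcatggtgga

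Tbp had the longest run, 13 glutamine codons at codons 58 to 70 of 316 (chr17:15724653-15724691, plus strand), of which 9 were CAG and 4 CAA. Of 21483 mouse coding genes, 0.251% hold a run at least as long. Htt had 7 at codons 18 to 24 of 3120 (chr5:34919302-34919322, plus strand), a length that 0.708% of coding genes reach. Atxn3 had 6 near the end of its protein, at codons 292 to 297 of 355 (chr12:101892822-101892839, minus strand), and Atxn7 had 5 near the start, at codons 25 to 29 of 867 (chr14:8456593-8456607, minus strand). Atxn1 and Atxn2 had runs of 3 codons, which 8.97% of coding genes reach. In Atxn1l and Ppp2r2b the longest run was 2 codons, and in Atxn10 it was 1. No run crossed an exon boundary. The position of the human repeat was not compared with these runs.

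Before the comparison of the groups, 3 properties of the libraries bear on it. Total counts were 14116088 to 20303833 a library, and the members had between 241 and 4849 counts each. Each group is labelled as 2 females and 1 male. Control replicate 2 is labelled female but had Xist at 0.249 CPM (counts scaled to a common library size by edgeR) and Ddx3y at 87.2 CPM, the levels of a male. Control replicate 3 and MeHg replicate 2, labelled male, had such levels too. By expression the sexes are therefore not balanced between the groups. MeHg replicate 2 was the only MeHg library with male levels (Xist at 748 and 694 CPM in MeHg replicates 1 and 3). Fits that omit it therefore compare MeHg females with controls of both sexes. The libraries held the markers of cerebellar neurons: Gabra6, a receptor subunit of granule cells, was at 435 to 797 CPM and Pcp2, of Purkinje cells, at 202 to 317 CPM. Markers of tissue that borders the cerebellum differed in level between the libraries. The summed level of 12 choroid plexus markers was 29.0 to 2046 CPM in controls and 1687 to 7185 CPM in MeHg. That of the 8 of 12 brainstem and midbrain markers tested was 22.7 to 52.7 CPM in controls, and 57.4, 198.5 and 62.9 CPM in MeHg replicates 1, 2 and 3. Slc6a4, which defines serotonin neurons, reached 47.1 CPM in MeHg replicate 2, against 0 to 0.539 CPM in the other 5 libraries. All 8 ependymal markers were higher in every MeHg library than in every control, against 13.9% of genes tested. By edgeR 2 of them were called higher, against 0.575% of genes tested. The sum of the 8 was 21.3 to 30.9 CPM in controls and 46.6 to 72.8 CPM in MeHg. Of 10 oligodendrocyte and 10 microglia markers, 6 in each list were higher without overlap, against the same 13.9%, and 0 were called by edgeR. The oligodendrocyte sum was 5774 to 6586 CPM in controls and 6595 to 8735 CPM in MeHg, with its maximum in replicate 2. The microglia sum was 147 to 161 CPM in controls and 171 to 206 CPM in MeHg. The summed level of 14 granule cell markers was 8411 to 8955 CPM in controls and 6214 to 7165 CPM in MeHg. That of 12 Purkinje cell markers was 10069 to 10903 CPM in controls and 8067 to 10186 CPM in MeHg, lowest in replicate 2. The part of these differences in the results on the members was not tested. In whole tissue, fewer cells of a type and less RNA per cell cannot be told apart.

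The comparison of MeHg with control asked whether exposure before birth was followed by other RNA levels of these genes in the adult cerebellum. Tbp, the TATA-binding protein used by all RNA polymerases, fell by 24.8% and was the only member to pass the test over all genes (edgeR quasi-likelihood test, Benjamini-Hochberg adjusted p under 0.05). Htt, Atxn7 and Atxn1l had negative fold changes that did not pass. Atxn1, Atxn2, Atxn3, Atn1, Atxn10 and Ppp2r2b had fold changes within 0.14 of 0 on the log2 scale, and their groups overlapped. The call rate was 1.79% of genes tested for falls, 0.575% for rises and 2.36% in all. The median log2 fold change of the 10 members was -0.09, against 0.01 over all genes tested, and 7 of 10 members had a negative value, against 48.9% of all genes. In Tbp, Htt and Atxn7 the 3 MeHg libraries all lay below the 3 controls, which held for 15.5% of genes tested. At an unadjusted p under 0.05, 4 members were lower (Tbp, Htt, Atxn7 and Atxn1l), against 12.7% of genes tested, and 0 were higher, against 11.8%.

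**Figure D1:**
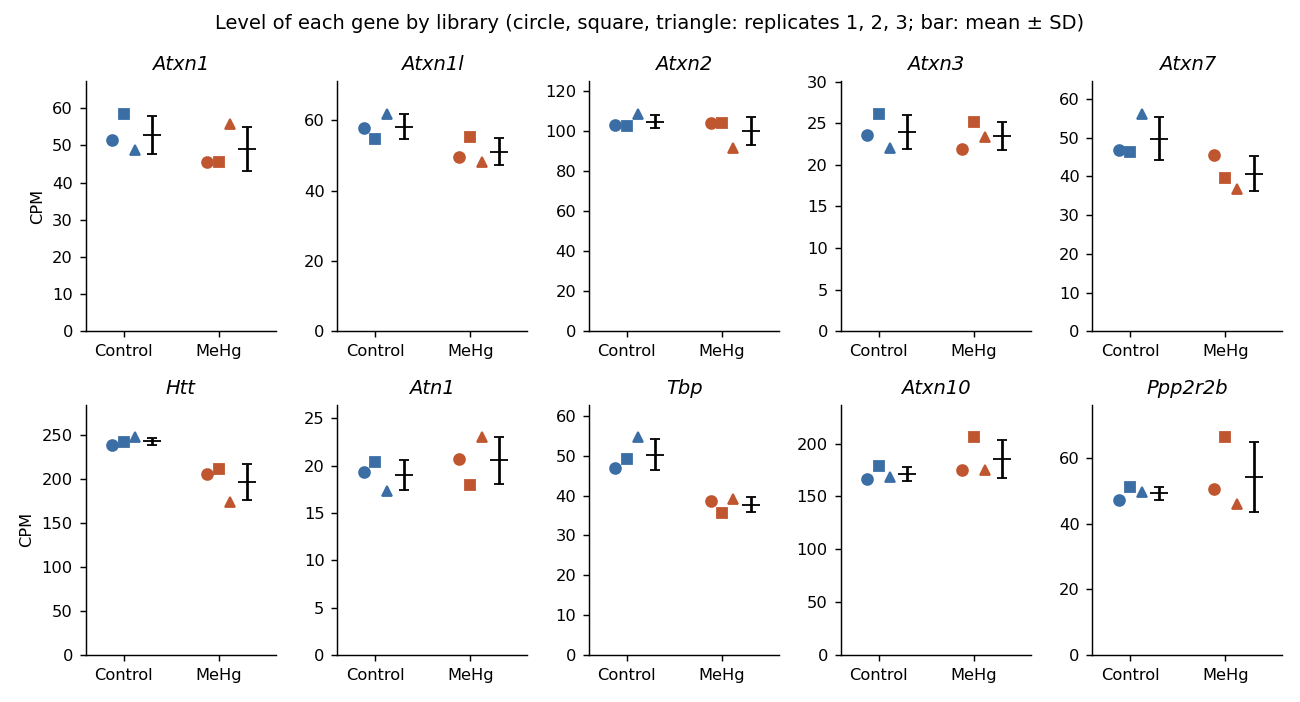
CPM of each member (vertical axis, from 0) in the 3 control libraries (blue) and the 3 MeHg libraries (orange), with circle, square and triangle for replicates 1, 2 and 3 and a bar for the mean ± SD. All MeHg points lie below all control points for Tbp, Htt and Atxn7, and the MeHg square stands above the rest for Atxn10 and Ppp2r2b.

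Tbp (ENSMUSG00000014767, chromosome 17, 15720150 to 15748641, GRCm39) was at 47.0, 49.2 and 54.6 CPM in control replicates 1, 2 and 3 and at 38.6, 35.6 and 39.1 CPM in the MeHg replicates. The lowest control was 7.92 CPM above the highest MeHg library. The means were 50.3 ± 3.92 CPM (SD, n = 3) and 37.8 ± 1.89 CPM, a log2 fold change of -0.41 ± 0.09 (SE, edgeR adjusted p = 0.0470, 95% interval -0.60 to -0.22). Its p-value ranked 325 among 16859. The call lay close to the threshold. It was lost without control replicate 1 (adjusted p = 0.128), control replicate 2 (0.0689), control replicate 3 (0.212), MeHg replicate 1 (0.0769) or MeHg replicate 3 (0.149), and kept without MeHg replicate 2 (0.0416). The fold change was negative under all 19 alternatives, between -0.45 and -0.30.

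The Tbp count has a further limit in the gene's position. Pdcd2 lies on the opposite strand within the last exon of Tbp. All 6628 bases of Pdcd2 exons in the annotation are also Tbp exon bases, 51.8% of the canonical Tbp mRNA, and none of the 948 coding bases of Tbp is shared. Pdcd2 is listed at 0 counts in all 6 libraries. Among coding genes with at least 99% of their exon bases shared with genes on the opposite strand, 65.7% of 35 were listed at 0 in every library, against 27.3% of 12664 that share none. Of 8764 coding genes that share part of their exon bases, 4.75% were at 0. These classes were not matched for level. Whether the counting used strand, and how it treated reads that fall in both genes, is not stated in what was available for this work. If reads of Pdcd2 were counted for Tbp, the level, the fold change and the call of Tbp hold for both genes together. If reads in shared bases were left out, the Tbp count rests on its unshared bases, and its level per length is understated. Which gene the change belongs to was not tested.

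**Figure D2:**
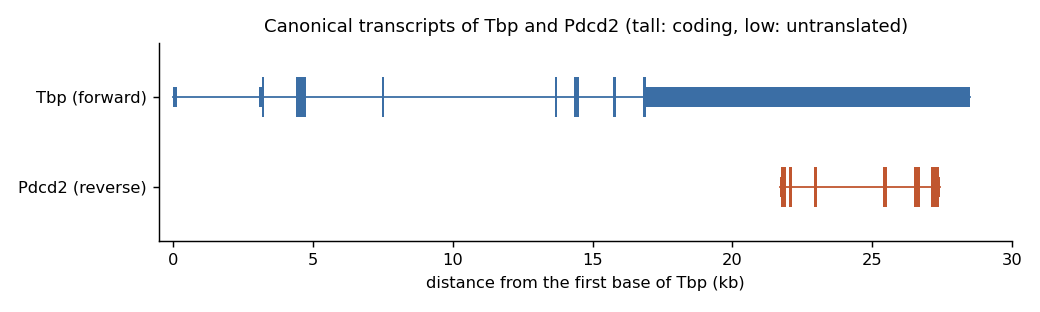
Canonical transcripts of Tbp (blue, read to the right) and Pdcd2 (orange, read to the left) by distance from the first base of Tbp in kb, with coding exons tall and untranslated ones low. Pdcd2 lies entirely within the long untranslated end of the last Tbp exon, away from the Tbp coding exons.

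The other subunits of TFIID, the complex in which TBP binds promoters, and the factors that load or remove TBP did not pass: 0 of 19 tested genes were called in either direction, with a median log2 fold change of -0.12. An unadjusted p under 0.05 was reached by 5, against 24.5% of all genes. DESeq2 called 2 (Taf3 and Btaf1), against 8.65% of all genes. Taf3 had the smallest p (31.7 ± 2.54 CPM in controls, 23.5 ± 1.21 CPM in MeHg, -0.43 ± 0.10, edgeR adjusted p = 0.0532). In 4 of the 19 the MeHg libraries all lay below the controls, against 15.5% of all genes, and in 1 above, against 13.9%.

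Htt (ENSMUSG00000029104, chromosome 5, 34919084 to 35069878) encodes huntingtin, a large scaffold protein of vesicle transport. It was at 239, 242 and 247 CPM in the control replicates and at 206, 211 and 174 CPM in the MeHg replicates. The controls were close together (SD 4.21 CPM), the MeHg libraries less so (SD 20.2 CPM), and the groups were 27.9 CPM apart at their nearest points. The log2 fold change was -0.30 ± 0.08 (SE, edgeR adjusted p = 0.0710, 95% interval -0.48 to -0.12). It passed without MeHg replicate 2 (-0.35, edgeR adjusted p = 0.0276), where 6.33% of all genes were called. Htt also passed with DESeq2 (-0.31, adjusted p = 0.0121), where 8.65% were called, against 2.36% in the main fit. Without MeHg replicate 3, which had the lowest Htt, its log2 fold change was -0.22 (edgeR adjusted p = 0.173), in a fit that called 0% of genes. An unadjusted p under 0.05 was reached there by Htt (0.0087) and by 17.9% of all genes. MeHg replicate 3 also had the highest choroid plexus level, and whether that bears on Htt was not tested.

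Of 15 tested partners of huntingtin, 1 fell by edgeR and 0 rose, with a median of -0.05. An unadjusted p under 0.05 was reached by 6, against 24.5% of all genes. DESeq2 called 2 (Zdhhc17 and Kif5c, both lower), against 8.65% of all genes. Zdhhc17, a palmitoyl transferase that acts on huntingtin, fell from 204 ± 5.19 CPM to 163 ± 11.5 CPM (-0.32 ± 0.07, edgeR adjusted p = 0.0469). Among single omissions it kept its call only without MeHg replicate 2, and it passed in 10 of 19 alternatives.

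Atxn7 (chromosome 14, 8362461 to 8508323) encodes a subunit of the deubiquitinase module of SAGA, a histone-modifying coactivator. It was at 46.7, 46.4 and 56.2 CPM in the control replicates and at 45.6, 39.6 and 36.8 CPM in the MeHg replicates. The groups did not overlap, but the gap was 0.762 CPM, less than the spread within either group (SD 5.57 and 4.51 CPM). The fitted log2 difference was -0.29 ± 0.11 (SE, edgeR adjusted p = 0.154, 95% interval -0.53 to -0.04). The other SAGA genes gave 0 calls by edgeR among 19 tested (3 at an unadjusted p under 0.05, and 3 with DESeq2), with a median of 0.0024. Over all genes, 24.5% reached that unadjusted p and DESeq2 called 8.65%. Kat2b, an acetyltransferase of the complex, had the smallest p (-0.25 ± 0.06, edgeR adjusted p = 0.0545). Usp22, the catalytic subunit of the module that holds ATXN7, was at 0.016 ± 0.079 (edgeR adjusted p = 0.926).

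Atxn1 (chromosome 13, 45703231 to 46118484) and its paralogue Atxn1l (chromosome 8, 110453083 to 110464371) encode proteins that bind CIC, a transcriptional repressor. Atxn1l was at 57.9, 54.8 and 61.9 CPM in the control replicates and at 49.6, 55.3 and 48.3 CPM in the MeHg replicates. MeHg replicate 2 lay above control replicate 2, so the groups overlapped. The log2 fold change of Atxn1l was -0.19 ± 0.08 (SE, edgeR adjusted p = 0.200). Without both libraries numbered 2 it was -0.28 (adjusted p = 0.0446), in a fit that called 10.3% of all genes.

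Atxn1 was at 51.5, 58.6 and 48.7 CPM in the control replicates and at 45.5, 45.5 and 55.8 CPM in the MeHg replicates. MeHg replicate 3 was the second highest of the 6 libraries, above control replicates 1 and 3. The log2 fold change was -0.11 ± 0.11 (SE, edgeR adjusted p = 0.548, 95% interval -0.35 to 0.13). Of the Atxn1 exon bases, 15.5% are shared with Gmpr on the opposite strand, which was at 27.0 ± 0.481 CPM in controls and 28.5 ± 2.27 CPM in MeHg.

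Within a library, the ratio of Atxn1 to Atxn1l counts does not depend on library scaling. It was 0.890, 1.07 and 0.786 in the control replicates and 0.918, 0.823 and 1.16 in the MeHg replicates, so the ranges overlapped. The mean log2 ratio differed by 0.07 between MeHg and control (two-sided exact permutation p = 0.6, where 3 against 3 allows no p below 0.1).

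Among 11 genes of CIC, its partners and the genes it represses, 10 had a negative fold change, 1 fell by edgeR and 0 rose (3 at an unadjusted p under 0.05, and 1 with DESeq2), with a median of -0.20. Over all genes, 48.9% had a negative fold change, 24.5% reached that unadjusted p and DESeq2 called 8.65%. The gene that fell was Etv1, a transcription factor gene repressed by CIC, from 461 ± 14.1 CPM to 330 ± 29.9 CPM (-0.48 ± 0.08, edgeR adjusted p = 0.0431). Etv1 is also on the granule cell list, of which 7 of 14 genes fell and 0 rose, against 1.79% and 0.575% of all genes. Etv4 and Etv5, other genes that CIC represses, were at 0.18 ± 0.13 and -0.34 ± 0.18 (edgeR adjusted p = 0.438 and 0.277). Cic itself was at -0.22 ± 0.07 (0.119).

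Atxn2 (chromosome 5, 121849400 to 121954556) encodes an RNA-binding protein that joins poly(A)-binding protein on mRNA. It was at 103, 103 and 109 CPM in the control replicates and at 104, 104 and 91.8 CPM in the MeHg replicates. MeHg replicate 3 alone lay below every control. The log2 fold change was -0.07 ± 0.07 (SE, edgeR adjusted p = 0.569), and its 95% interval, -0.22 to 0.08, was the narrowest of the 10. Of 10 partners of ATXN2 on RNA, edgeR called 0 (4 at an unadjusted p under 0.05, and 2 with DESeq2), and 9 had a negative value. The shares over all genes were 24.5% at that unadjusted p, 8.65% with DESeq2 and 48.9% with a negative value. Rbfox1, a splicing factor that binds ATXN2, was nearest to the threshold (-0.30 ± 0.07, edgeR adjusted p = 0.0520).

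Atxn3 (chromosome 12, 101885160 to 101924505) encodes a deubiquitinase. It was at 23.6, 26.1 and 22.1 CPM in the control replicates and at 21.9, 25.2 and 23.3 CPM in the MeHg replicates. Both groups covered nearly the same range. Their log2 fold change was -0.03 ± 0.10 (SE, edgeR adjusted p = 0.888, 95% interval -0.26 to 0.20). Of its 11 partners in ubiquitin handling edgeR and DESeq2 called 0 (1 at an unadjusted p under 0.05, against 24.5% of all genes), with a median of 0.0062. Ube4b, a ubiquitin chain ligase, had the smallest p (-0.22 ± 0.06, edgeR adjusted p = 0.0750).

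Atn1 (chromosome 6, 124719507 to 124733487), which encodes the corepressor atrophin-1, was at 19.4, 20.4 and 17.3 CPM in the control replicates. In the MeHg replicates it was at 20.7, 18.0 and 23.0 CPM, with MeHg replicate 3 the highest and control replicate 3 the lowest. The log2 fold change was 0.11 ± 0.12 (SE, edgeR adjusted p = 0.620, 95% interval -0.16 to 0.38). Of its exon bases, 73.6% are shared with the gene model Gm45234 on the same strand, which was listed at 0 to 6 counts, so the level of Atn1 is uncertain. Its paralogue Rere was at 263 ± 4.45 CPM in controls and 226 ± 14.7 CPM in MeHg (-0.22 ± 0.07, edgeR adjusted p = 0.0957). Of 9 paralogues of the members, edgeR and DESeq2 called 0, and Rere alone had an unadjusted p under 0.05, against 24.5% of all genes.

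The members with a repeat outside the coding sequence both peaked in MeHg replicate 2. There the brainstem markers were at their maximum, and the granule and Purkinje cell sums at their minimum. It was also the only MeHg library with male levels of Xist and Ddx3y. Whether any of these goes with the peaks was not tested. Atxn10 (chromosome 15, 85220446 to 85347413), needed for neuron survival and neurite growth, was at 166, 179 and 168 CPM in the control replicates and at 175, 206 and 175 CPM in the MeHg replicates. Its log2 fold change was 0.11 ± 0.08 (SE, edgeR adjusted p = 0.400), and 0.039 (0.736) without MeHg replicate 2. Ppp2r2b, a neuronal regulatory subunit of the phosphatase PP2A (chromosome 18), was at 47.3, 51.2 and 49.6 CPM in the control replicates and at 50.5, 66.4 and 46.1 CPM in the MeHg replicates. Its log2 fold change was 0.14 ± 0.13 (SE, edgeR adjusted p = 0.538) and -0.022 (0.901) without MeHg replicate 2. Among 15 other PP2A subunits and regulators edgeR and DESeq2 called 0 (1 at an unadjusted p under 0.05, against 24.5% of all genes), with a median of -0.07. Ppp2r1b, a scaffold subunit, had the smallest p (-0.28 ± 0.09, edgeR adjusted p = 0.117).

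**Figure D3:**
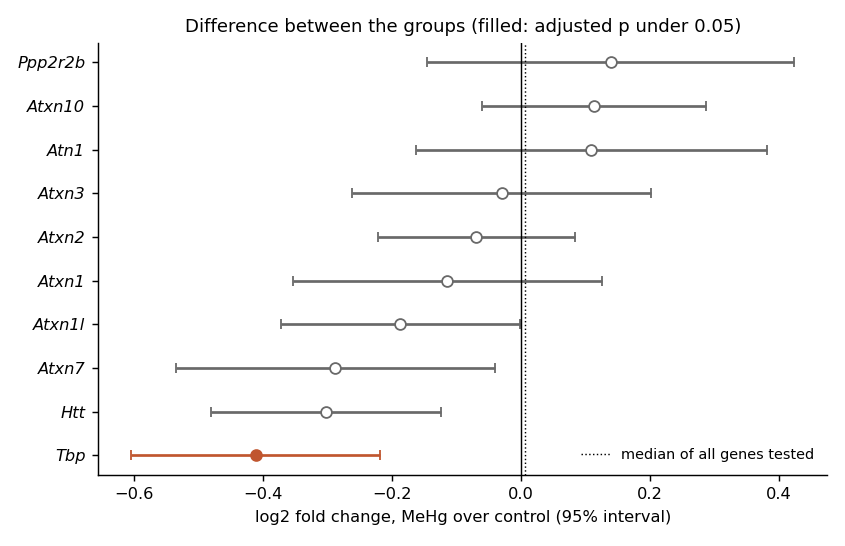
Log2 fold change of MeHg over control for each member (horizontal axis) with its 95% interval from the edgeR fit, where the filled point passed at an adjusted p under 0.05 and the dotted line is the median of all genes tested (0.01). The intervals of Tbp, Htt, Atxn7 and Atxn1l lie below 0 and only Tbp passed over all genes.

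Which members passed varied with the setting, as did the share of all genes called. Tbp alone was called with DESeq2 size factors (2.25% of genes tested), with sex as labelled in the model (3.61%) and with limma-voom (2.12%). The labelled sex term takes control replicate 2 as female, so it does not adjust for sex by expression. Tbp and Htt were called with DESeq2 (8.65%), without a filter on low counts (7.38%) and without MeHg replicate 2 (6.33%), and Atxn1l joined them without both libraries numbered 2 (10.3%). No member was called with upper-quartile scaling (1.17%), a filter at 1 CPM (2.38%), an offset for canonical transcript length (2.35%), without control replicate 2 (1.29%) or without MeHg replicate 1 (0.0117%). The same held where 0% of genes were called, namely with an offset for deposited length, with limma on log2 FPKM plus 1 or 0.1, and when MeHg replicate 3, control replicate 1 or control replicate 3 was omitted. In these 11 settings 2 to 4 members had an unadjusted p under 0.05. Among all genes that share was 24.4% with upper-quartile scaling, 25.2% with the 1 CPM filter, 23.6% and 24.5% with the offsets for deposited and canonical length, and 23% and 23.1% with limma on log2 FPKM plus 1 and 0.1. It was 17.7%, 23.4% and 14.9% without control replicate 1, 2 or 3, and 23.4% and 17.9% without MeHg replicate 1 or 3.

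Other genes of inherited ataxia or CAG repeat disease were counted for comparison. Of 32, 2 fell by edgeR and 0 rose, with a median of -0.11, and 22 had a negative value, against 48.9% of all genes. An unadjusted p under 0.05 was reached by 16 of the 32, against 24.5% of all genes. DESeq2 called 10 of them, against 8.65% of all genes, and 2 of the 10, Pdyn and Zfhx3, were higher in MeHg. Cacna1a, the calcium channel subunit gene whose own CAG repeat causes a further spinocerebellar ataxia, fell from 689 ± 19.8 CPM to 521 ± 54.7 CPM (-0.40 ± 0.09, edgeR adjusted p = 0.0490). Fat2, a protocadherin gene expressed in granule cells, was at 844 ± 53.6 CPM in controls and fell to 585 ± 41.6 CPM (-0.53 ± 0.08, 0.0431). Among single omissions Cacna1a kept its call only without MeHg replicate 2, and Fat2 and Etv1 only without MeHg replicate 2 or control replicate 2. Over the pathway lists together, 4 of 135 genes tested fell and 0 rose, against 1.79% and 0.575% of all genes.

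The level of the members could be compared per length only, and the length used changed the order. On the deposited FPKM (fragments scaled by gene length and library size), Atxn10 stood far above the others at 83.0 ± 3.08 in controls and 89.2 ± 7.98 in MeHg. Ppp2r2b followed in controls at 11.5 ± 0.436, then Htt at 9.33 ± 0.159, Atxn1l at 7.27 ± 0.454, Atxn2 at 6.28 ± 0.207 and Atxn7 at 5.86 ± 0.659. Atxn3 (4.16 ± 0.350), Atn1 (3.89 ± 0.316), Atxn1 (3.57 ± 0.337) and Tbp (3.48 ± 0.270) were lowest. Other genes share 73.6% of the Atn1 exon bases and 51.8% of the canonical Tbp mRNA. How reads in shared bases were counted is not stated, so the places of Atn1 and Tbp are uncertain in both groups. In the controls Atxn2 overlapped with Atxn7, and each of the lowest 4 with its neighbour. In MeHg the order was alike, except that Atn1 (4.18 ± 0.537) and Atxn3 (4.05 ± 0.262) changed places, with overlapping ranges. There Htt (7.51 ± 0.732) overlapped with Atxn1l (6.33 ± 0.418), Atxn1l with Atxn2 (5.94 ± 0.389), and Atxn7 (4.76 ± 0.529) with Atn1, while Tbp (2.60 ± 0.149) stood below Atxn1 (3.29 ± 0.417) without overlap.

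The gene length in the deposited table is 15689 bases for Atxn2 and 24438 for Htt, whereas their canonical transcripts have 4472 and 13215 bases. Per kilobase of the canonical transcript, Atxn2 moved from the fifth to the second place at 23.5 ± 0.762 CPM per kb in controls, above Htt at 18.4 ± 0.319 and Ppp2r2b at 13.9 ± 0.558, and Atxn10 stayed first at 87.2 ± 3.44. This length was applied after the deposited lengths had been seen.

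**Figure D4:**
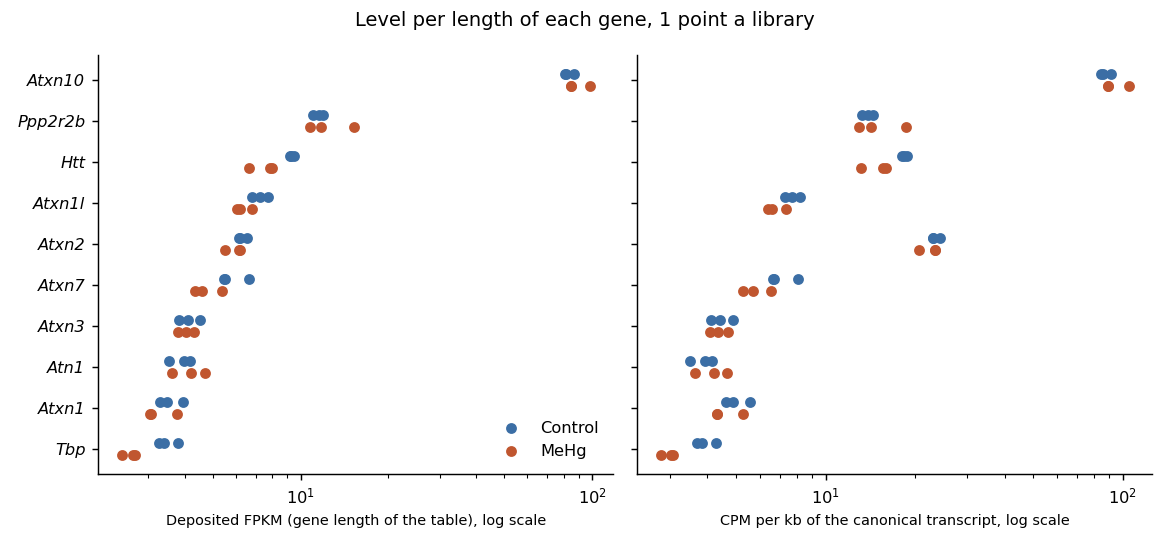
Level per length of each member in the 3 control (blue) and 3 MeHg (orange) libraries on log axes, on the left as deposited FPKM and on the right as CPM per kb of the canonical transcript. Atxn10 is highest on both, and Atxn2 lies above Htt only on the right. The levels of Tbp and Atn1 are uncertain, because their exons are shared in large part with other genes.

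Fold change varied with gene length across the whole table, and the members follow the length order in part. When tested genes were split into 4 equal classes by deposited length, in the longest class (6480 bases or more) the median log2 fold change was -0.09 and 5.88% fell by the test. In the shortest class (up to 2414 bases) the median was 0.10 and 0.119% fell. The 6 members in the longest class (Atxn1, Atxn1l, Atxn2, Atxn7, Htt and Tbp) all had negative values, and the shortest member, Atxn10, with 1937 bases, had a positive one. The share of negative values among all genes of that class was not counted. Atxn2, with 15689 bases, was at -0.07, above its class median. Between these lengths, Atn1 (4600 bases) and Ppp2r2b (4035 bases) were positive and Atxn3 (5407 bases) was negative. With an offset for the length trend of each library, Htt was at -0.14 (edgeR adjusted p = 0.195), Tbp at -0.33 (0.104), Atxn7 at -0.28 (0.179), Atxn1l at -0.19 (0.186), Atxn2 at 0.033 (0.762) and Atxn10 at -0.0016 (0.992). That fit called 0 of 16859 genes (3977 at an unadjusted p under 0.05). With the canonical length in its place it called 397 genes, and Htt was at -0.19 (0.108) and Tbp at -0.30 (0.123).

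**Figure D5:**
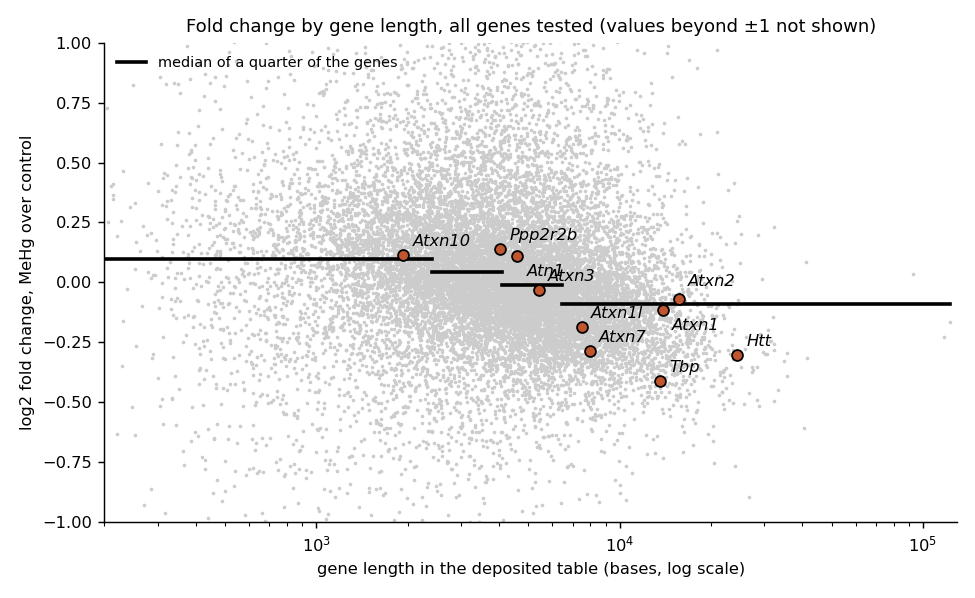
Log2 fold change of MeHg over control against the deposited gene length (log axis) for the genes tested (grey), with the median of each of the 4 length classes as a black line and the members in orange. The medians run from 0.10 in the shortest to -0.09 in the longest class, and Tbp, Htt, Atxn7, Atxn1l, Atxn1 and Atxn3 lie below the median of their class.

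The profile over the 6 libraries, after subtraction of each gene's mean log2 CPM, was compared with those of 10212 other genes of at least 10 CPM by the root mean square difference. Nearest to Tbp was Appl2, an adaptor protein gene, at 0.040, followed by Helq, a DNA helicase gene, at 0.040. Nearest to Htt were Kndc1 (0.027) and Pxk (0.029), and nearest to Atxn7 were Ago3 (0.025), an Argonaute gene of small RNA silencing, and the histone methyltransferase gene Kmt2d (0.028). Nearest to Ppp2r2b were Ankrd34b (0.018) and Edil3 (0.026), both with their highest level in MeHg replicate 2 at 41.5 and 125 CPM. For Atxn10 these were Htra2 (0.0083), a mitochondrial protease gene, and Snap47 (0.022), and for Atxn2 Ppp2r5e (0.019) and Cul9 (0.020). Atxn1 had the most distant neighbours, Ccdc39 (0.043) and Katnbl1 (0.047). Those of Atxn1l were Ccp110 (0.020) and Pi4kb (0.024), those of Atxn3 Tlk1 (0.019) and Mpv17l (0.020), and those of Atn1 Anp32b (0.033) and Hmgn5 (0.039). Picked from so many genes over 6 libraries, these are descriptions. Among the members themselves, Atxn1l and Atxn2 were nearest (0.082), and Tbp and Ppp2r2b farthest apart (0.338).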

How the data were processed

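Cerebellar RNA was read in pairs of 150 bases on a NovaSeq instrument, per the labels' protocols. The labels name the mm39 build, and the submitters' processing notes name it and DESeq2. Aligner, counting program, annotation and use of strand: not given in the sources used here. Deposited counts are whole, unscaled read counts per gene. Deposited FPKM values were, in each library, proportional to the count over the deposited gene length. The authors' group means in that table were not used. All columns matched a labelled sample.

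Counts were filtered with edgeR's filterByExpr, scaled by TMM and tested in edgeR 4.0.16 (quasi-likelihood, R 4.3.3), group as the only term, 3 against 3, with Benjamini-Hochberg adjustment over all 16859 genes. The SE is the absolute log2 fold change divided by the square root of F. The procedure was tested on simulated data. Members, lists and tests were chosen with earlier results of these data known. The genes named are the members, in each pathway list every called gene or otherwise that with the smallest p, and for each member its 2 nearest profiles. Pdcd2, Gmpr, Gm45234, Cic, Etv4, Etv5, Usp22, Slc6a4, Btaf1, Kif5c, Pdyn, Zfhx3, Xist and Ddx3y were named after their values were seen. Some items are not reported here. Of the listed symbols 1 (Hip14) did not match the table, being an older name of Zdhhc17. Alternatives were DESeq2 1.42.0, its size factors alone, scaling by the upper quartile, a filter at 1 CPM or none, a term for labelled sex or for replicate number, omitted libraries, limma 3.58.1 (voom, or log2 of FPKM plus 1 or 0.1) and loess offsets (span 0.5) for length. The canonical transcript length (99.6% of tested genes matched) was added after the data were seen. No libraries were copies: chi-square per degree of freedom within a group was 7.73 to 19.6.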

Additional observations from a re-analysis of the deposited data

How the results depend on the processing

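The members had at least 241 counts in each library, and 3 libraries a group limit the precision. Over all genes 398 were called. This number was 197 with upper-quartile scaling, 2378 without a filter on low counts, 609 with sex as labelled in the model, 1723 without both libraries numbered 2, 1380 with DESeq2 and 0 with the offset for deposited length (3977 at an unadjusted p under 0.05) or with limma on log2 FPKM plus 1 or 0.1 (3874 and 3887). Omitting single libraries gave 0 to 1091 calls. The highest came from omitting MeHg replicate 2, then 220 for control replicate 2 and 2 for MeHg replicate 1. There were 0 for control replicate 1 (3042 unadjusted), control replicate 3 (2572 unadjusted) and MeHg replicate 3 (3099 unadjusted). DESeq2 size factors, a filter at 1 CPM, limma-voom and the canonical length offset stayed within 1.5 times.

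Falls made up 301 of the 398 calls. Their share was slightly lower with DESeq2 size factors (282 of 380) and a filter at 1 CPM (267 of 373). It was also lower with upper-quartile scaling (119 of 197), without a filter (1178 of 2378) and with DESeq2 (839 of 1380). The same held with sex in the model (416 of 609) and with the replicate block (390 of 648). Among omissions it was lower without both libraries numbered 2 (1116 of 1723), MeHg replicate 2 (718 of 1091) or MeHg replicate 1 (0 of 2).

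The number of members called was 1. It was 0 with upper-quartile scaling, a filter at 1 CPM, either length offset and limma on log2 FPKM plus 1 or 0.1 (3 or 4 members at an unadjusted p under 0.05 in each), 2 with DESeq2 or no filter (Htt and Tbp), 3 without both libraries numbered 2 (Atxn1l, Htt and Tbp), and 0 to 2 without each library. The 4 calls in the pathway lists became 2 with upper-quartile scaling, 22 without a filter, 20 with DESeq2 or without both libraries numbered 2, 0 with the deposited length offset or limma on log2 FPKM plus 1 or 0.1 (49, 38 and 39 at an unadjusted p under 0.05), and 0 to 8 without each library.

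Over 19 alternatives Tbp kept its direction in all and its call in 8, and Htt kept its direction in all and passed in 4. Atxn1l, Atxn7 and Atn1 kept their sign in all, but Atn1 was between 0.026 (without MeHg replicate 3) and 0.20 (without MeHg replicate 2) over the omissions, against 0.11. The sign changed for Atxn1 (0.021 without both libraries numbered 2, and -0.21 without MeHg replicate 3 to -0.036 without control replicate 2 over the single omissions), Atxn2 (0.033 with the deposited length offset), Atxn3 (0.0069 with upper-quartile scaling, and -0.086 to 0.037 over the omissions, positive without control replicate 2 or MeHg replicate 1), Atxn10 (-0.0016 with the deposited length offset) and Ppp2r2b (-0.022 without MeHg replicate 2, up to 0.25 over the other omissions). The log2 ratio of Atxn1 to Atxn1l differed by -0.029 without control replicate 3 and by -0.063 without MeHg replicate 3, up to 0.19 over the other omissions, in place of 0.074. The cause of these changes was not tested. For comparison, the median log2 fold change over all genes tested was 0.0062 in the main fit. It was 0.044 with upper-quartile scaling and -0.045 with the deposited length offset.

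With the replicate number as a block, 648 genes were called over all, 10 in the pathway lists and 1 among the members (Tbp, adjusted p = 0.0397). The correlation of same-numbered libraries' deviations from their group means was 0.19, 0.35 and -0.24 for numbers 1, 2 and 3. For libraries of unlike number it was -0.43 to 0.36. With 3 libraries a group, these values cannot decide whether the numbers pair the samples.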
